A study of Drosophila melanogaster with 3 samples.

Results

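These results describe 622 genomic regions of Drosophila melanogaster embryos that were found in all 3 biological replicates of a ChIP-seq experiment on the transcription factor HLH54F and that ranked just below the authors' final peak list. The regions were chosen by their measured values. The pooled dm6 list of 23689 peaks, which was called on the 3 replicates together and holds background as well as peaks, was ranked by the deposited signal value, and the final list (the optimal peaks, n = 4246) took its 4246 highest ranks. A pooled peak became a member when it overlapped no optimal peak, ranked 8500 or better, had its summit inside a peak of rank 8500 or better in each replicate's own list, and had no summit in a coding sequence. Of 3913 pooled peaks up to rank 8500 that overlapped no optimal peak, 133 had a summit in a coding sequence. The other 3780 are called same-range peaks, and 622 of them (16.5%, 95% Wilson interval 15.3 to 17.7) were members. The embryos came from the transgenic strain HLH54F-GFP, which stably expresses HLH54F with green fluorescent protein (GFP) at its C terminus, and they were whole, of both sexes and 0 to 24 h of age. One group was profiled, so no condition is compared. The chromatin of all tissues and stages was pooled, and the promoter that drives the fusion protein is not stated in the labels. The labels' descriptions name an antibody against GFP and their antibody field names HLH54F.

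HLH54F belongs to the basic helix-loop-helix (bHLH) family, whose members bind as dimers to short sites of the form CANNTG, called E-boxes. In the fly embryo it is needed for the caudal visceral mesoderm, a small group of cells that migrates forward along the midgut and gives rise to the longitudinal gut muscles. ChIP-seq recovers DNA that lies near the tagged protein in fixed chromatin, whether the protein touches the DNA itself or reaches it through other proteins. Peaks near the threshold of a final list are the ones whose presence depends most on the threshold, and many fly promoters carry sites for general promoter factors such as DREF, BEAF-32 and M1BP.

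The sequences below show the summits of the strongest members and the sites on which the sequence comparison rests. All are from the release 6 genome (dm6, RefSeq), plus strand, 5′ to 3′. Not every strong member could be shown: summit windows that overlap an annotated exon are left out, and so are members on 1 chromosome arm. Capitals mark every match, on either strand, to any of the 20 sequences searched. These were the 10 reverse-complement classes of the E-box CANNTG. For promoter factors they were the DNA replication-related element TATCGATA that DREF binds, the sequence CGATA known from the insulator protein BEAF-32 and contained in the former, motif 1 of the factor M1BP with the letters GGTCACAC, and the core promoter element TATAAA of the TATA-binding protein. Other factors were represented by GAGAG for the GAGA factor, by CAGGTAG for the early activator Zelda, by GATAAG for the family of GATA factors and by TGACTCA for the dimers of the AP-1 family. Simple repeats were represented by CACACACA and, separately, by the homopolymer AAAAAAAA. A match is a description of the letters and not evidence of a bound site. The first 4 windows of 60 bp are centred on the DREF sequence in the strongest members that could be shown with it within 100 bp of the summit, all at promoters, at pic (chr3R:13052021-13052080), aux (chr3R:4220879-4220938), Tomosyn (chrX:12631528-12631587) and CG6325 (chr3R:10407310-10407369). The next 4 are centred on the M1BP sequence, at bun (chr2L:12546648-12546707), Tpst (chrX:13563682-13563741), CG6654 (chr3R:15213667-15213726) and Fdh (chr3R:10872650-10872709).
pic: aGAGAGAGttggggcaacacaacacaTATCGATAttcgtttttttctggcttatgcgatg
aux: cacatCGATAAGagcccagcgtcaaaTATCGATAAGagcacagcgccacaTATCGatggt
Tomosyn: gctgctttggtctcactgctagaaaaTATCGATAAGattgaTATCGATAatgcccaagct
CG6325: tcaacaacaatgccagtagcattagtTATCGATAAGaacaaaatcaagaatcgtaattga
bun: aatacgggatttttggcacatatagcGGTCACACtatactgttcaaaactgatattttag
Tpst: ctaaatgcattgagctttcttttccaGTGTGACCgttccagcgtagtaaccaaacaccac
CG6654: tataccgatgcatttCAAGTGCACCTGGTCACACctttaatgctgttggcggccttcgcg
Fdh: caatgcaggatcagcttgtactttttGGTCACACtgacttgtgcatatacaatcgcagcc
The next 5 windows, of 121 bp centred on the summit, belong to the promoter members of highest signal among those that could be shown, at CG5171 (chr2L:7401718-7401838), CG9498 (chr2L:6351159-6351279), CG9902 (chrX:16547572-16547692), D2hgdh (chrX:2141242-2141362) and CG31548 (chr3R:5636863-5636983).
CG5171: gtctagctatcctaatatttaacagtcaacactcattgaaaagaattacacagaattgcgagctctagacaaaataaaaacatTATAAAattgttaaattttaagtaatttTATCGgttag
CG9498: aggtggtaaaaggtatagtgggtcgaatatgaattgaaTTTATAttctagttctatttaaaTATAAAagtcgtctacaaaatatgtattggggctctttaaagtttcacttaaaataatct
CG9902: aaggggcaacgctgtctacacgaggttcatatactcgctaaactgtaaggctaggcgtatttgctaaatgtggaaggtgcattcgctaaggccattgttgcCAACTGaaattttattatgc
D2hgdh: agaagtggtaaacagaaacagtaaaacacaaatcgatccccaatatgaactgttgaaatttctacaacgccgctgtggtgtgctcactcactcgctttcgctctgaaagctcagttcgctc
CG31548: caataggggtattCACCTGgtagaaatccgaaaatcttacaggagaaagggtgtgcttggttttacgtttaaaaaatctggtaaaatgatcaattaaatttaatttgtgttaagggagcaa
The last 6 show the 5 distal members of highest signal, chosen in the same way, and the strongest member at a caudal visceral mesoderm gene. They lie at olf413 (chr3L:22134293-22134413), Mnt (chrX:3677866-3677986), inc (chrX:1517626-1517746), ft (chr2L:4222999-4223119), del (chr2L:21149199-21149319) and LanA (chr3L:6217286-6217406).
olf413: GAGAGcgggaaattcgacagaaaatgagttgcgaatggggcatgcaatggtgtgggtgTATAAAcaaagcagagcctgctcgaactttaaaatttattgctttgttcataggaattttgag
Mnt: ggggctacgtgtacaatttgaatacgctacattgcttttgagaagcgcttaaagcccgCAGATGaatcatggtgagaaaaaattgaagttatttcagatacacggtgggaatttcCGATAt
inc: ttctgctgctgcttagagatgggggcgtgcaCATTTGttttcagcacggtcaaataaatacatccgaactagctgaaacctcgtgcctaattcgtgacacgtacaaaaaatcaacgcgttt
ft: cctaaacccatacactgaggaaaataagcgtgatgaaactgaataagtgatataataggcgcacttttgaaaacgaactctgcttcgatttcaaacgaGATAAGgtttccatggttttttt
del: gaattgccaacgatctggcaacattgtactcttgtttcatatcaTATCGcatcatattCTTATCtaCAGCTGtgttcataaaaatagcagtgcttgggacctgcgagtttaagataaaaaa
LanA: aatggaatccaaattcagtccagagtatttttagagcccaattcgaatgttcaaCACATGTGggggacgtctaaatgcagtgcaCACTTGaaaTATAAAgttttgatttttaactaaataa

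Members sat directly under the threshold of the final list and became rare a short way below it. Their pooled signal, which is the authors' own value for each peak, ran from 54.1 to 92.7 (median 82.2), and the weakest optimal peak had 92.7. All members were 420 bp wide. Of the same-range peaks at pooled ranks 4247 to 5000, 47.7% were members (326 of 683), against 30.4% at ranks 5001 to 5500, 17.5% at 5501 to 6000, 8.43% at 6001 to 6500 and 1.19% at 8001 to 8500. Signal and ranks chose the members, so these values are a description and carry no test. In the authors' processing of the same data against the dm3 build, the final list held 4587 peaks.

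The 3 replicates did not place the members at the same height. The median rank of the members was 5771 in replicate 1, 5804.5 in replicate 2 and 5114.5 in replicate 3. The SD over a member's 3 ranks had a median of 1387, and the gap between its best and its worst rank had a median of 2638. Replicate 3 gave the best rank to 266 members (42.8%), replicate 2 to 187 (30.1%) and replicate 1 to 169 (27.2%). This holds for peaks that passed the rule only. Over all 3780 same-range peaks, replicate 3 gave support to the fewest, 1791 (47.4%), against 66.4% for replicate 1 and 61.9% for replicate 2. The number of members within a replicate's own 4246 strongest peaks was 89 in replicate 1, 111 in replicate 2 and 175 in replicate 3. Counted per member, 300 were outside these strongest peaks in every replicate, 273 were inside in 1 replicate, 45 in 2 and 4 in all 3. The supporting replicate summit lay a median of 22, 32 and 35 bp from the pooled summit in replicates 1, 2 and 3, and no member was supported by a replicate peak whose summit fell in an optimal peak. Depth could not be read from the peak lists, which held 30000, 30000 and 24914 peaks for replicates 1, 2 and 3.

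**Figure D1:**
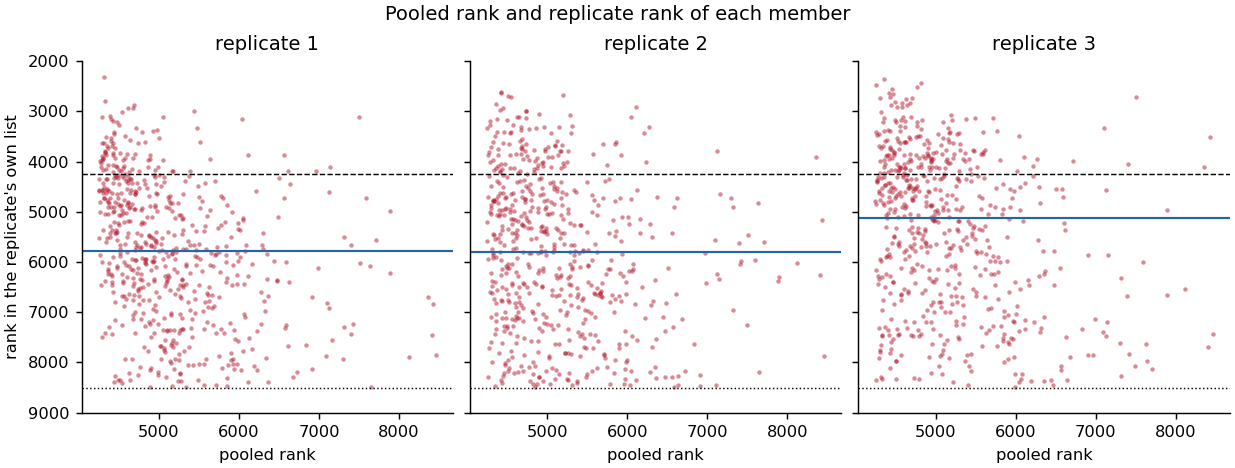
Each point is 1 of the 622 members, with its rank in the pooled list on the x axis and its rank in the own list of replicate 1, 2 or 3 on the y axis (rank 1 would be at the top). The dashed line is rank 4246, the dotted line the limit of 8500 and the blue line the members' median, which was 5771, 5804.5 and 5114.5. The values chose the members, and replicate 3 holds the most points above the dashed line (175).

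The member of highest signal lay between genes, 1737 bp upstream of olf413 (3L, 22134143 to 22134562, signal 92.7), and ranked 4573, 5207 and 4789 in replicates 1, 2 and 3. The next, in an intron of Mnt, which encodes the repressor partner of Max that opposes Myc, had the same rounded signal of 92.7 and ranked 5522, 5588 and 4852. Both ranked alike in the 3 replicates, with SDs of 322 and 407 ranks. At Set8, a histone methyltransferase gene, the summit lay 13 bp upstream of the start site and the ranks were 4594, 3335 and 8354. This member was the strongest at a promoter and nearly failed the rule in replicate 3. At ft, an atypical cadherin of planar polarity and Hippo signalling, the order was turned around, with ranks of 5009, 8286 and 2473. Others among the 15 strongest lay at inc (a ubiquitin ligase adaptor known for its role in sleep), del (a factor of piRNA-producing loci), puc (a phosphatase of the JNK pathway), Tak1 (a kinase of the innate immune response), jing (a zinc-finger factor of the midline and trachea), mib1 (a ubiquitin ligase that acts on Notch ligands), Ak6, CG33912, CG5171, CG9586 and CG9498. Of these 15 members, 6 were at promoters, 4 in introns and 5 between genes.

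The 4 members inside the strongest 4246 peaks of all 3 replicates were at pnt, Xrp1, Ssdp and CG14853. The pnt member lay in an intron of this ETS factor gene, a target of receptor tyrosine kinase signalling (3R, 23335611 to 23336030). It ranked 3865, 2917 and 3916 in the replicates, yet only 6110 in the pooled list, with a signal of 69.5. Xrp1, a bZIP factor of cell competition, had its member 253 bp upstream of a start site, with ranks of 3484, 4122 and 2905. Ssdp, a cofactor of LIM-domain transcription complexes, held one in an intron (4192, 3794 and 4033). CG14853 had one 143 bp upstream of its start site (4214, 4227 and 3619). After these 4, and apart from CG9586 and CG5171 of the 15 strongest, the next members by worst replicate rank lay at Den1 (a deneddylase), Tlk (a kinase of chromatin assembly), Nab2 (a poly(A) RNA-binding protein), CG10809, CG5953 and Tob. Their worst ranks ran only to 4619.

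At the edges of the rule, the weakest members were in introns of CG14502 (signal 54.4), px (54.3) and alpha-Est10 (54.1). The px one overlapped a stronger px member (signal 85.3) and rested on the same replicate peaks, with ranks of 6843, 5169 and 3518. The weakest optimal peaks, at psq, Mtap and Clic, had signals that round to 92.7 and replicate ranks between 2421 and 6957. The first same-kind peaks beyond pooled rank 8500 lay at lncRNA:CR45642, syd and Hrb98DE, with a signal of 53.9 each. They also lacked support, with worst replicate ranks of 24491, 14671 and 18484. The narrowest failures on support, at Gclc, SKIP and lncRNA:CR44526, missed by a worst rank of 8505, 8512 and 8515, and the narrowest passes, at CG34436, lncRNA:CR44527 and CG12535, had worst ranks of 8493, 8494 and 8495. Some members shared their evidence: 30 overlapped another member, and 24 shared all 3 supporting replicate peaks with one. At Rm62, a DEAD-box helicase gene, a pair of overlapping members rested on the same replicate peaks, with ranks of 4191, 5829 and 7857. Keeping only the strongest of overlapping members left 607.

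Most members lay at promoters or in introns, and fewer of them were at promoters than among the optimal peaks. A summit within 500 bp of an annotated start site counted as a promoter summit, and 264 of 622 members had one (42.4%, 95% Wilson interval 38.6 to 46.4), 249 lay in introns (40.03%) and 91 between genes (14.6%). Among the 4227 optimal peaks without a summit in a coding sequence, 60.9% were at promoters. The difference was −18.5 percentage points (95% interval −22.7 to −14.3, adjusted p = 6.96e-17, Fisher's exact test, two-sided, Benjamini-Hochberg over 14 location tests). Member summits were in turn more often in introns, 40.03% against 27.8% (adjusted p = 6.98e-09), and between genes, 14.6% against 9.49% (adjusted p = 0.000429, Fisher's exact test for both). The promoter share already fell along the optimal list, from 69.8% at ranks 1 to 1000 to 52.5% at ranks 4001 to 4246. Against the 617 last optimal peaks, a reference chosen after the data were seen, the members' promoter share was still lower by 11.2 points (53.6% against 42.4%, adjusted p = 0.00121, Fisher's exact test), while the intron and intergenic differences no longer passed (adjusted p = 0.0762 and 0.103). Within the members it did not fall steadily, with 40.2% at pooled ranks 4247 to 5000 and 48.5% at 5001 to 5500. Peaks share libraries and a control and are not independent samples, so these tests and intervals cover counting error over peaks only.

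Between members and the 3158 same-range peaks without support in all 3 replicates, no difference in location class passed the test. These other peaks were weaker than the members. Their median signal was 65.0 against 82.2, and their median pooled rank 6648.5 against 4959.5. No comparison of these sets, here or below, therefore separates support from strength. The promoter share was 42.4% against 42.9% (difference −0.463 points, 95% interval −4.71 to 3.79, adjusted p = 0.894, Fisher's exact test). Intron shares were 40.03% and 39.1% and intergenic shares 14.6% and 15.1% (adjusted p = 0.832 and 0.894, Fisher's exact test). Without replicate 3 the promoter comparison gave another result: with support asked only of replicates 1 and 2, supported peaks were 7.59 points higher than the rest (adjusted p = 9.76e-06, Fisher's exact test). In the replicates' own lists, peaks past the optimal number and up to rank 8500 that were held by both other replicates had a promoter share of 42.0%, 42.0% and 42.1% for replicates 1, 2 and 3. Those not held by both had 41.8% and 43.2% in replicates 1 and 2 and 24.8% in replicate 3. The supported sets of the 3 lists share regions by construction, so their near-equal shares are not independent of each other.

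**Figure D2:**
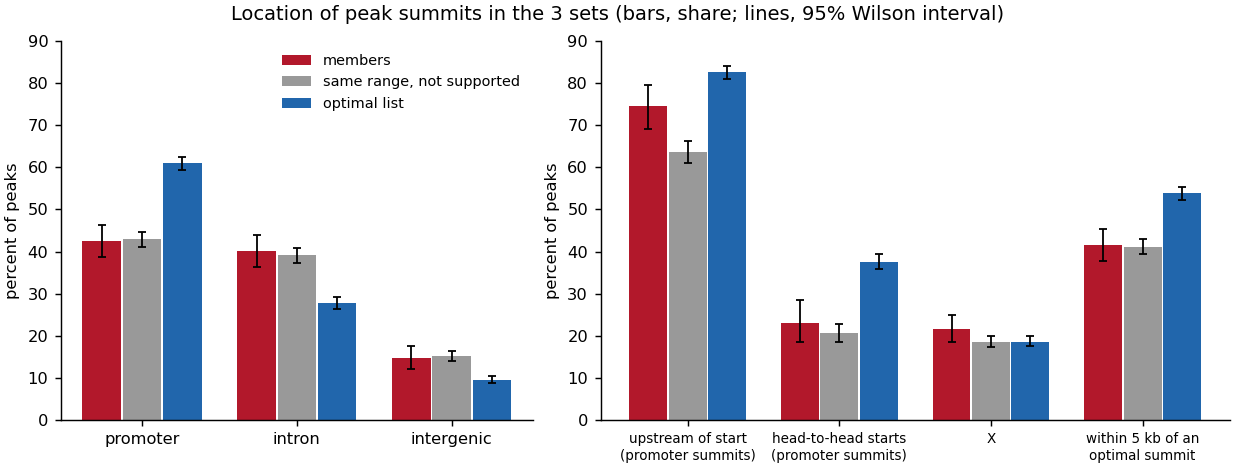
Bars give the percent of members (red, n = 622), same-range peaks not held in all replicates (grey, n = 3158) and optimal peaks (blue, n = 4227) in each location, and black lines the 95% Wilson interval over peaks. The upstream and head-to-head shares are of promoter summits only. Members lie near the grey bars for promoters (42.4% and 42.9%) and below the blue one (60.9%).

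Promoter members had their summits mostly upstream of the start site. Of 264 promoter summits, 197 lay upstream (74.6%, 95% Wilson interval 69.0 to 79.5), with a median position of −65.5 bp, against 863 of 1355 for the other same-range peaks (63.7%, median −34 bp) and 2128 of 2576 for optimal peaks (82.6%, median −77 bp). Members exceeded the same-range peaks by 10.9 points (adjusted p = 0.00154) and differed from the optimal peaks by −7.99 points (adjusted p = 0.00376, Fisher's exact test for both). The replicates' own lists gave the first difference the same sign in 3 of 3 (14.9 ± 1.82 points, mean ± SD, n = 3), although each list's support comes from the other replicates and the supported sets share regions. It was not stable under the rule, however. It was −0.626 points with a rank limit of 6500, which left 192 members, and −1.29 points when replicate 3 was not asked for support. Members were also stronger than the other same-range peaks, as given above. Pairs of protein-coding genes that start head to head within 500 bp of the summit were less frequent at members than at optimal peaks, with 23.1% against 37.6% of promoter summits (adjusted p = 7.69e-06, Fisher's exact test), and had 20.6% at the other same-range peaks (adjusted p = 0.51). Against the last optimal peaks alone, neither the upstream nor the head-to-head difference passed (adjusted p = 0.315 and 0.278, Fisher's exact test).

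**Figure D3:**
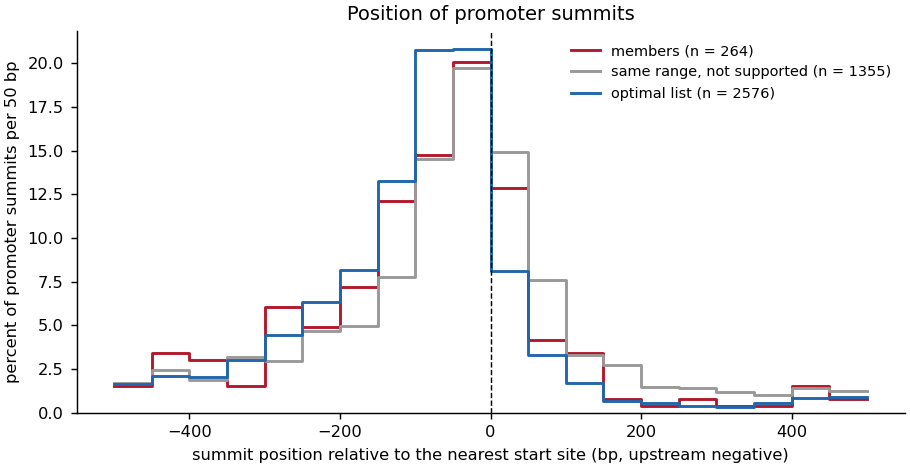
Lines give the percent of promoter summits per 50 bp of distance to the nearest start site, with upstream to the left, for members (red, n = 264), other same-range peaks (grey, n = 1355) and optimal peaks (blue, n = 2576). The medians are −65.5, −34 and −77 bp, and the members' line stays below the grey one just downstream of the start site.

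Splitting the same-range peaks by the exact replicates that held them is a description made after the data were seen, on the ranks that chose the members, and carries no test. Among promoter summits, 71.0% lay upstream in peaks held by replicate 3 alone (n = 93), 73.3% in those of replicates 1 and 3 (n = 232), 76.7% in those of replicates 2 and 3 (n = 129) and 74.6% in the members. Where replicate 3 did not hold the peak the values were lower, at 64.1% for replicate 1 alone (n = 195), 55.3% for replicate 2 alone (n = 208), 58.9% for replicates 1 and 2 (n = 448) and 48.0% for none (n = 50). Taken per replicate, support in replicate 3 went with 74.1% against 58.6% without it. For replicate 1 the values were 66.4% and 63.3%, and for replicate 2 they were 64.3% and 67.5%. The members' 74.6% lay between the values of the peaks that replicate 3 held with 1 other replicate. With the rank limit of 6500, where support in replicate 3 was still asked, the difference from the other same-range peaks was −0.626 points, as given above.

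The share on the X chromosome was also higher in peaks held by replicate 3. Of the members, 134 lay on X (21.5%, 95% Wilson interval 18.5 to 24.9), 150 on 3R, 124 each on 2R and 3L, 86 on 2L and 4 on chromosome 4. The other same-range peaks had 18.5% on X and the optimal peaks 18.6%, and neither difference passed (adjusted p = 0.139 for both, Fisher's exact test). Per replicate, 23.1% of same-range peaks held by replicate 3 were on X against 15.3% of those it did not hold. The peaks of replicates 1 and 3 had the highest share, 27.3%, and those of replicate 2 alone the lowest, 12.7%. Without replicate 2 in the rule the difference from the other same-range peaks rose to 7.46 points (adjusted p = 3.72e-07) and without replicate 3 it was −1.51 points (adjusted p = 0.322, Fisher's exact test for both). What the third library differed in was not tested.

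**Figure D4:**
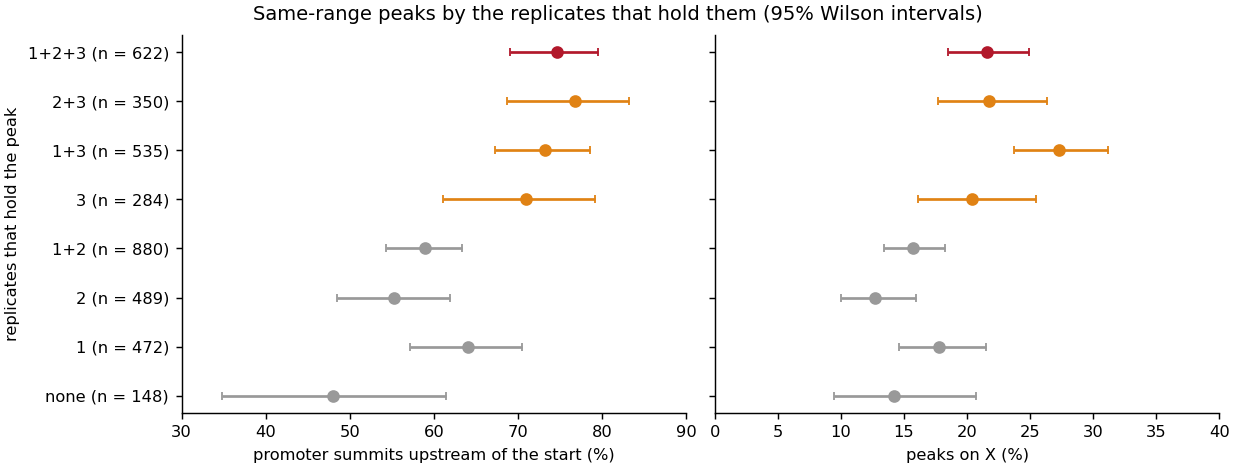
Points give, for same-range peaks grouped by the replicates that held them (rows, n peaks), the percent of promoter summits upstream of the start site (left) and the percent of all peaks on X (right), with 95% Wilson intervals over peaks. Members are red, other peaks held by replicate 3 orange and the rest grey. Both axes show higher shares in the rows with replicate 3, such as 73.3% and 27.3% for replicates 1 and 3 against 58.9% and 15.7% for replicates 1 and 2.

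In the distance to optimal peaks, no difference between members and the other same-range peaks passed the test. The nearest optimal summit was a median of 6579 bp away, and 258 members (41.5%) had one within 5 kb. The same share was 41.2% for the other same-range peaks (adjusted p = 0.894) and 53.9% for optimal peaks with respect to other optimal peaks (difference −12.4 points, adjusted p = 3.6e-08, Fisher's exact test for both). The rule sets part of the latter difference, because a member may not overlap an optimal peak whereas optimal peaks may overlap each other. With the strongest of overlapping peaks kept in each set it was −9.29 points (adjusted p = 8.09e-05, Fisher's exact test). The summit lay in an annotated transposable element for 4 members (0.643%), 12 of the other same-range peaks (0.380%) and 9 optimal peaks (0.213%). These shares were not tested. The summits were poorer in G and C than their surroundings, with a median GC content of 37.3% within 100 bp of the summit and 41.8% in equally long windows whose centre lay 600 bp to the left. Optimal peaks had 36.8% and 44.3%.

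Of the 20 sequences searched, 4 (20%) were more frequent at member summits than in the flanking windows of the same peaks, and all 4 are known from core promoters. The DREF sequence was found in 25 of 622 summit windows (4.02%) and in 1.29% of flanks (adjusted p = 0.03, exact McNemar test). The M1BP sequence was found in 20 (3.22%) and in 0.643% of flanks (adjusted p = 0.03, exact McNemar test). The BEAF-32 sequence, part of the DREF sequence, was present in 28.8% and 22.0% (adjusted p = 0.0337), and the TATA sequence in 29.4% and 22.2% (adjusted p = 0.03, exact McNemar test). These tests were two-sided, and p was adjusted for all 20 sequences by the Benjamini-Hochberg method. They made no allowance for base composition, which also differed between summits and flanks, as given above. No sequence passed with windows of 50 bp each side or with the rank limit of 6500. When only the strongest of overlapping peaks was kept, 3 passed and BEAF-32 missed (adjusted p = 0.053, exact McNemar test). In windows of the same length centred on all 19252 protein-coding start sites, the DREF sequence had a share of 6.45%, M1BP 5.68%, BEAF-32 37.1% and TATA 26.9%. The member shares above include distal members. Promoter members alone had 9.09%, 7.20%, 42.0% and 27.3% in the same order, and no difference from the start sites was tested.

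No E-box class passed the test between member summits and flanks. Any of the 10 classes was present in 64.8% of summit windows and 64.1% of flanks (difference 0.643 points, 95% interval −4.57 to 5.86, exact McNemar p = 0.856). The class CAGCTG was at 9.65% of summits and 10.8% of flanks (adjusted p = 0.688, exact McNemar test), and its sign depended on the flank and on replicate 3. The class CATATG came nearest, with 7.72% against 4.34% (adjusted p = 0.0557), and CACCTG was lower at summits, 4.66% against 8.04% (adjusted p = 0.0677, exact McNemar test for both). At promoter members the share with any E-box was 66.3% at summits and 65.2% in flanks, and at distal members 63.7% and 63.4%. The lack of an excess was not particular to members. The other same-range peaks had 64.6% in both windows. The optimal peaks had 62.0% at summits and 65.3% in flanks (exact McNemar p = 0.00169).

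Taken alone, promoter members passed the test for 3 of these 4 sequences and distal members for none, and whether the excess differed between promoter and distal members was not tested. Among the 264 promoter members, the DREF sequence was at 9.09% of summits and 1.89% of flanks (adjusted p = 0.00207), M1BP at 7.20% and 0.379% (adjusted p = 0.000401) and BEAF-32 at 42.0% and 20.8% (adjusted p = 1.66e-06), which made 3 of 20 sequences (15%) by the exact McNemar test. At the 358 distal members none of the 20 passed (0%, 2 at an unadjusted p under 0.05). The TATA sequence passed in neither group, with 27.3% of summits and 18.6% of flanks at promoter members (adjusted p = 0.157) and 31.0% and 24.9% at distal members (adjusted p = 0.306, exact McNemar test for both). Distal DREF and M1BP sequences were present in 1 member each. Of the 25 members with the DREF sequence, 24 were promoter members, and the match lay within 50 bp of the summit in 12. Of the 20 with the M1BP sequence, 19 were promoter members and 12 had the match within 50 bp.

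**Figure D5:**
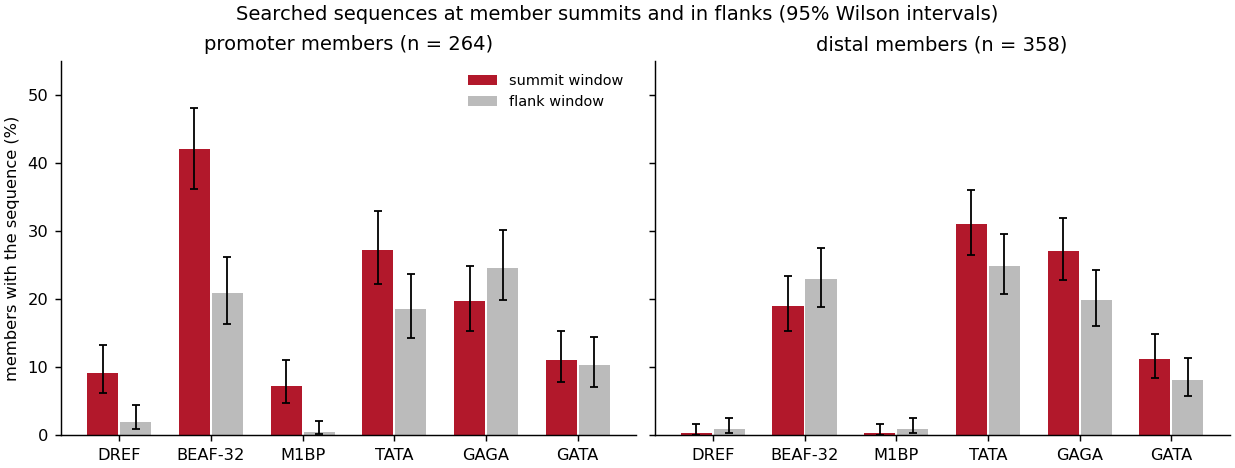
Bars give the percent of promoter members (left, n = 264) and distal members (right, n = 358) with each searched sequence, named by the factor known to bind it, within 100 bp of the summit (red) and in the flank (grey), with 95% Wilson intervals. At promoter members BEAF-32 stands at 42.0% against 20.8%, DREF at 9.09% against 1.89% and M1BP at 7.20% against 0.379%, while at distal members summit and flank intervals overlap.

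The DREF element is known from genes of DNA replication and cell growth. Its strongest members lay at CG10809, CG5861, CG9426 and PolA2, a subunit of the replicative DNA polymerase alpha, whose member (3R, signal 88.3) ranked 4282, 5008 and 5644. Others were at shg, the gene of E-cadherin (2R, signal 86.3, ranks 2930, 5082 and 4177), at fz3, a Wnt receptor, at Upf1, a helicase of nonsense-mediated decay, and at the proteasome genes Prosalpha3 and Prosalpha5. The M1BP element is known from housekeeping promoters, and its strongest members were at Ubc4, a ubiquitin-conjugating enzyme (3L, signal 91.8, ranks 2324, 6471 and 4773), dsh, the Dishevelled protein of Wnt signalling (X, signal 91.8, ranks 4725, 5748 and 5937), and bun, a TSC22-domain factor (2L, signal 90.5, ranks 5282, 3870 and 3887). Further ones lay at dom (a chromatin remodelling ATPase), Su(var)2-10 (a SUMO ligase) and Prosalpha2. PIG-T and EndoA had both sequences in 1 summit window. These genes were chosen by their matches after the values were seen.

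Few sequences separated members from the other sets. Against the other same-range peaks, none of the 20 sequences differed (0%, and none at an unadjusted p under 0.05, Fisher's exact test, adjusted over 40 tests). Against the optimal peaks 1 of 20 (5%) did, BEAF-32, with 28.8% against 35.4% (difference −6.61 points, adjusted p = 0.0456, Fisher's exact test). Among promoter peaks alone this difference was −2.02 points (42.0% against 44.1%, 95% interval −8.27 to 4.24). The promoter share of the 2 sets also differed, as given above. At promoter summits, the DREF sequence had 9.09% in members, 9.004% in other same-range peaks and 9.20% in optimal peaks, and M1BP had 7.20%, 6.42% and 5.94%.

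Members touched 675 of the 9387 protein-coding genes that had any pooled summit in their body or up to 2 kb upstream (7.19%), and 540 of the 622 members lay in such a window. Of the 675 genes, 296 (43.9%) also held an optimal summit, and 45.5% of all 9387 genes did. Most genes held 1 member (619), and 56 held 2 or more. The transcription factor gene pnt held the most, 5 members beside 4 optimal peaks in a gene of 55937 bp. Next came px, Ten-a and Tlk with 4 each, and at px a pair of overlapping members rested on the same replicate peaks. Ten-a, a teneurin of synaptic partner matching, spans 291517 bp and held 1 optimal peak. The share of a list's genes with a member is read against 7.19%.

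Of the 18 genes of the caudal visceral mesoderm, where HLH54F is known to act, 2 held a member (11.1%), LanA and htl, and neither of them held an optimal peak. The LanA member lay in an intron of this laminin alpha gene, 676 bp downstream of a start site (3L, 6217136 to 6217555, signal 90.1), and ranked 7434, 2967 and 4593 in replicates 1, 2 and 3. The htl member lay in an intron of this fibroblast growth factor (FGF) receptor, 514 bp upstream of the nearest start site (3R, 18049670 to 18050089, signal 78.2), and ranked 8377, 3081 and 7489. Both were strongest in replicate 2 and weakest in replicate 1, where htl passed the limit of 8500 narrowly. A stronger peak at the htl promoter, with a signal of 87.6 and a pooled rank of 4593, was no member because the replicate 1 peak that held its summit ranked 12047. This stronger peak (18049458 to 18049877) overlapped the htl member, and both rested on the replicate 2 peak of rank 3081. In replicates 1 and 3 the supporting peaks differed, with ranks of 12047 and 4115 for the stronger peak and 8377 and 7489 for the member. The htl member is therefore not fully separate evidence from the peak that failed. Of the 18 genes, 8 held an optimal peak (44.4%).

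The remaining caudal visceral mesoderm genes show how near misses looked. HLH54F itself had 1 same-range peak, at its promoter (signal 63.0), which ranked 13439, 5297 and 22692. At LanB2, a laminin subunit gene, the peak of signal 84.9 ranked 12634, 6794 and 2000. At LanB1, another laminin subunit gene, the peak of signal 65.2 ranked 29730 and 2581 in replicates 1 and 2, and no peak of replicate 3 held its summit. The FGF ligand gene pyr had one of signal 58.5, ranked 8803 and 4541 and likewise without a peak in replicate 3. The genes croc and byn, 2 transcription factors of this tissue, had no pooled peak above rank 8500. At stumps, the adaptor of FGF receptors, the peak of signal 74.1 ranked 6615, 4274 and 21432, and at scb, an integrin gene, that of signal 66.6 ranked 7475, 4480 and 20461. Over the 10 genes with a same-range peak and no member, the strongest such peak missed the limit of 8500 in replicate 1 at 8 genes, in replicate 2 at 2 and in replicate 3 at 7. Of all 3780 same-range peaks, members included, 66.4%, 61.9% and 47.4% had support in replicates 1, 2 and 3. The 10 genes were picked for holding no member, and their counts were not tested.

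Among the other 17 lists, chosen by tissue or function with earlier results of these data known, the share with a member ran from 0% to 26.3%. Of all 9387 genes, 7.19% held one, and no list was tested against this share. Longer genes have wider windows, and htl, pnt and kirre each stand in several lists, so the lists are not separate observations. The highest share was in the list of epidermal growth factor (EGF) receptor and FGF signalling, where 5 of 19 genes held a member. Its strongest members were at pnt, 256 bp upstream of a start site (signal 91.8, ranks 4626, 6622 and 7745), at aop, the ETS repressor that opposes pnt (signal 89.2, ranks 4314, 3403 and 6403), and at htl. The EGF receptor gene Egfr held one of signal 73.2 (ranks 5792, 6143 and 4534) and S one of 59.8. Of these 19 genes 14 held an optimal peak (73.7%, against 45.5% of all genes). The trunk visceral mesoderm list had 3 of 17 (pnt, kirre and ptc), all with optimal peaks as well. In somatic muscle and fusion there were 3 of 16, htl beside kirre and rols, which act in myoblast fusion.

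Chromatin and signalling lists gave single cases. Of the Polycomb and trithorax group, 4 of 22 genes held a member. The strongest were at psq (signal 88.9, ranks 5229, 4699 and 5008), lola (85.3, ranks 4186, 3897 and 5778) and pho (85.0, ranks 8091, 8080 and 2519). At pho, the Polycomb recruiter, the SD of the 3 ranks was the largest of all members (3214), with replicate 3 far ahead of the others. The Notch list had 2 of 16, mib1 and the coactivator mam. The insulator and promoter list had 2 of 11, mod(mdg4) and zld, and the bHLH list 2 of 18, Mnt and Myc. Epidermis and trachea had 2 of 12 (mwh and shg), neuroblasts and neurons 2 of 13 (insc and pros), blood cells 1 of 8 (ush), the midgut 1 of 11 (grn) and contractile proteins 1 of 20 (Zasp52). The heart (12 genes tested), hindgut (9) and Hox (8) lists had none.

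Of 88 cytosolic ribosomal protein genes 68 held an optimal peak (77.3%, against 45.5% of all genes) and 5 a member (5.68%), the strongest at RpL35A, 6 bp upstream of its start site (signal 86.3, ranks 7134, 3730 and 4494). Of 63 mitochondrial ones 43 held an optimal peak (68.3%) and 2 a member (3.17%), mRpL3 and mRpS25. Both shares with a member are read against the background of 7.19% and were not tested, so nothing particular to these genes is read from them.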

How the data were processed

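The 3 biological replicates of 1 group were analysed from the deposited dm6 peak lists. Per the deposited text records of each sample, the authors called every replicate and the pool of all 3 against 1 control file and derived the optimal list with an irreproducible discovery rate step. Alignment, peak calling and the settings of that step are not described in the sources used here. The deposited signal value of each peak, of unstated scaling, ranked peaks within its own list only. The deposited −log10 q-value entered no test. The deposited summit offset gave the summit. The lists give no read counts, so depth is unknown. The labels call the replicates biological and say no more of how they were separated.

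Members, gene lists and searched sequences were chosen with earlier results of these data known. Starts and genes came from Ensembl release 115 (BDGP6.54), and all transcripts other than transposable elements gave start sites. Summit classes were taken in the order promoter, 5′ UTR, coding sequence, 3′ UTR, exon of a non-coding RNA, intron, and outside genes. Summits in coding sequences were left out of every set. A peak was named by the gene of a start site within 500 bp, otherwise by the gene that holds it or the nearest start. Genes were named by rule: the 15 members of highest signal, the next 10 by worst replicate rank, the edges of the rule, all members at caudal visceral mesoderm genes, and the 3 genes with the strongest members in each other list. Of the listed symbols, 9 had no match. Sequences were read from the RefSeq release 6 genome, and none is shown from 2R. Shares were compared by Fisher's exact test and paired windows by the exact McNemar test, both two-sided, with a threshold of 0.05 after adjustment (scipy 1.17.1, numpy 2.4.6, pandas 2.3.3). The tests were checked on simulated data. Alternatives were other rank limits, leaving out each replicate, other promoter, window and distance definitions, the replicates' own lists, and, chosen after seeing the data, the last optimal peaks and the strongest of overlapping peaks. A few genes that hold a member are not reported here by name.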

Additional observations from a re-analysis of the deposited data

How the results depend on the processing

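Of 220 alternative values, 169 counted as the same (a tested difference by its direction and its side of the threshold, a count by its size, and a value of the replicates' own lists, which has no test, by a move under the SD over the 3 lists), 17 were weaker, 11 stronger, 21 changed sign and 2 moved by more than that SD. Differences are in percentage points, members minus the reference set. The lower promoter share and the higher intron share against optimal peaks kept their sign everywhere, and the promoter difference passed everywhere. With rank limit 6500, which left 192 members, the values against other same-range peaks were −0.278 for introns, 0.303 between genes and −0.626 for upstream summits. Against optimal peaks they were 4.58 between genes, −12.0 head to head and −6.47 near an optimal summit, none of which passed. That limit left 0 sequences against flanks, 0 against optimal peaks, and 219 genes. With limit 10000 the promoter share against same-range peaks was 2.80, X rose to 5.61 and 4.36 against same-range and optimal peaks, and 2 sequences differed from optimal peaks.

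When support was asked of only 2 replicates, the values against same-range peaks ran from −3.23 to 7.59 for promoters, −2.90 to 3.28 for introns, −4.72 to 0.269 between genes, −1.29 to 13.0 for upstream summits, −1.51 to 7.46 for X and −2.73 to 5.63 near an optimal summit. X against optimal peaks ran from −0.486 to 5.61, the CAGCTG difference from −1.30 to 1.07, sequences against optimal peaks from 1 to 3, and genes from 1000 to 1506. Leaving out replicate 3 turned the sign of the upstream and X values, and the cause was not tested.

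Several small differences from same-range peaks crossed 0: near an optimal summit −0.447 with coding-sequence summits kept and −0.647 within 2 kb, between genes 0.868 with promoters within 200 bp, promoters 0.631 and introns −0.693 with promoters within 1000 bp, and promoters 0.0041 with the strongest of overlapping peaks. CAGCTG was 0.804 against the right-hand flank. Windows of 50 bp each side left 0 sequences in both comparisons with calls. Distal peaks alone left 0 in both, and promoter peaks alone, like the strongest of overlapping peaks, left 0 against optimal peaks. A window of 1 kb around start sites left 399 genes. The replicates' own lists gave 14.9 for upstream summits and 5.79 for X, and 2 of their values turned sign within the SD, promoters at 5.46 (SD 10.3) and introns at −3.18 (SD 4.30). Against the last optimal peaks, 6.32 for introns, 3.93 between genes, −4.53 for upstream summits and −5.29 head to head no longer passed. The intervals count peaks, and the number of replicates and the unknown depth limit what they can show.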
